A study of Mus musculus with 4 samples.

Results

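Branched-chain amino acid breakdown was followed through 10 genes, from the aminotransferases Bcat1 and Bcat2 to the leucine-specific enzymes Ivd, Mccc1 and Mccc2, among the 55487 genes of the deposited table. The genes were found by symbol, and all 10 had a row. Bcat1 was chosen by its measured values, since it had been among the genes called higher in knockout islets in these same libraries; the other 9 were chosen because they act in its pathway. The difference of Bcat1 between the genotypes is therefore a description and not a test.

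RNA came from freshly isolated pancreatic islets of 30-week-old C57BL/6 mice, and each of the 4 libraries pooled the islets of 2 mice. The control mice were Ggcx flox/flox without Cre (n = 2 pools), and the knockout mice were Ggcx flox/flox with the Pdx1-Cre transgene (n = 2 pools), so all 4 pools carried the floxed alleles. Pdx1-Cre recombines in the pancreatic lineage, not in beta cells alone, and no pool carried Cre with unfloxed Ggcx. The transgene and the loss of Ggcx cannot be told apart here. Control libraries are named by the numbers of their columns (2 and 3), which do not match the sample labels.

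Leucine, isoleucine and valine are broken down mainly in mitochondria. An aminotransferase first moves the amino group to 2-oxoglutarate, giving glutamate and a branched-chain ketoacid; Bcat2 encodes the mitochondrial enzyme and Bcat1 the cytosolic one. The branched-chain ketoacid dehydrogenase complex then commits the ketoacid to oxidation. Its kinase switches the complex off by phosphorylation and its phosphatase switches it on. Leucine is also a known stimulus of insulin secretion and of mTORC1 signalling in islet cells.

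The promoters of Bcat1, of its paralog Bcat2 (upstream start only) and of Ivd and Mccc2 are shown. Bcat1 was the member that stood apart, and the others were among those not called. By the counts below, Ivd had the most CCAAT boxes and Mccc2 the only E-box, so they do not stand for the other members. Each sequence is the 250 bases before a RefSeq start on GRCm38.p6, in the 5′ to 3′ direction of the gene, and capitals mark the CCAAT box (CCAAT, or ATTGG on the other strand).
Bcat1, upstream start, chr6:145076158-145076407, minus strand: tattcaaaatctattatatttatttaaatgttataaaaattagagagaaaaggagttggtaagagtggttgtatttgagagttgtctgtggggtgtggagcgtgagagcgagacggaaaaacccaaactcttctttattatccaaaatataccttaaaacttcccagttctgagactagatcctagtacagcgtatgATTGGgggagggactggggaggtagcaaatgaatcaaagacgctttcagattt
Bcat1, downstream start, chr6:145048813-145049062, minus strand: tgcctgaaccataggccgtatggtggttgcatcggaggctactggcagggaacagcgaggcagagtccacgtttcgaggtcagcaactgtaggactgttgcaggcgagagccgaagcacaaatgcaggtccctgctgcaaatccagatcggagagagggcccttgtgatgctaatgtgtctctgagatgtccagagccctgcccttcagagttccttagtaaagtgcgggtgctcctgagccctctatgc
Bcat2, upstream start, chr7:45569903-45570152, plus strand: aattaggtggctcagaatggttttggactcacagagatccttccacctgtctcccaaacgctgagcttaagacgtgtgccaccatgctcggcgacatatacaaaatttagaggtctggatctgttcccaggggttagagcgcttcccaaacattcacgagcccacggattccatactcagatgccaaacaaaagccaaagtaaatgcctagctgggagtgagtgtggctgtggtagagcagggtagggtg
Ivd, chr2:118861744-118861993, plus strand: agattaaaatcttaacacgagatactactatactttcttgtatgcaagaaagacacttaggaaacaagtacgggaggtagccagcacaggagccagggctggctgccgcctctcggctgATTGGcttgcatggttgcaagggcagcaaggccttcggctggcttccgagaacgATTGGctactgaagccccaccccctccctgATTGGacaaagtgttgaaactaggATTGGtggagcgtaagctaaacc
Mccc2, chr13:100015640-100015889, minus strand: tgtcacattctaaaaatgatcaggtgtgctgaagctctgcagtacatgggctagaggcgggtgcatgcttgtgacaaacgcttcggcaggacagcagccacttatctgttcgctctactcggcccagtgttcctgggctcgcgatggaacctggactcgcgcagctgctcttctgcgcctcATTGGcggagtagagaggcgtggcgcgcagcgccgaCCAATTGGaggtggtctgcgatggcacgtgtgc

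RefSeq gave 12 starts for 9 of the 10 genes; Dbt was the exception. A CCAAT box stood before 7 of the 12 starts, which belong to 7 different genes. It stood before 33.8% of the 32851 starts in the whole table. Ivd had 4 copies, Mccc1 and Mccc2 had 3 each, and the upstream start of Bcat1 had 1, at 53 bases before the start. No copy was found before the downstream start of Bcat1 or before either start of Bcat2. The E-box CACGTG, the motif of MYC, was found before 1 of the 12 starts, that of Mccc2, against 6.02% of all starts. The ATF4 element TGATGNAAN, searched on both strands, was found before 0 of the 12 starts, against 3.44% of all starts. These matches describe letters and not bound sites.

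The libraries held 47624630 to 51756221 reads assigned to genes. Ggcx, which encodes gamma-glutamyl carboxylase, had normalized read counts of 3971 and 3981 in control columns 2 and 3 and 234.2 and 643.4 in knockout replicates 1 and 2, so it was low in both libraries labelled knockout. Beta-cell genes led by Ins2 and Ins1 summed to 10147298 to 10656293 normalized reads in controls and 10671171 to 10995157 in knockouts, while 5 of the 8 genes had a log2 fold change below 0 and the median was -0.05. Of all 16589 genes tested, 41 rose and 62 fell in knockout islets; with a common upper quartile as the scale these counts were 39 and 33. In whole islets a smaller number of cells of a type and less RNA per cell cannot be told apart.

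Bcat1 (ENSMUSG00000030268; GRCm38 chromosome 6, 144993835 to 145076184, minus strand) was scarce in control islets and higher in knockout islets. Its normalized read count was 43.9 in control column 2 and 33.1 in control column 3, and 128 and 98.8 in knockout replicates 1 and 2. Both knockout pools stood above both control pools. These values came from 43 and 34 reads in the controls and 123 and 103 reads in the knockouts. The exact 95% Poisson intervals, which cover counting error only, were 31.1 to 57.9 and 23.5 to 47.5 reads in the controls, and 102 to 147 and 84.1 to 125 in the knockouts. The control intervals overlapped each other, as did the knockout intervals, while no control interval reached a knockout interval. Bcat1 was chosen by these same values, and pools of a genotype differed beyond counting error over the genes. Nothing is therefore read from this separation.

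Means of Bcat1 were 38.5 ± 7.65 for the control pools and 113 ± 20.7 for the knockout pools (SD, n = 2 each). Its log2 fold change was 1.53 ± 0.23 (SE), or 2.90-fold with a 95% limma interval of 2.03 to 4.14. It was 2.52-fold without control column 3, 2.55-fold without knockout replicate 1, 3.29-fold without knockout replicate 2 and 3.32-fold without control column 2. Bcat1 was the 1 member of 10 that limma called at an adjusted p of 0.05, and 0.621% of all tested genes were called in either direction; since the call chose the gene, nothing is read from this count. The call was lost without control column 3 (limma adjusted p = 0.0584) and without knockout replicate 1 (0.0700). In the authors' deposited table the log2 fold change of Bcat1, control over knockout, was -1.56 with an adjusted p of 0.00339.

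**Figure D1:**
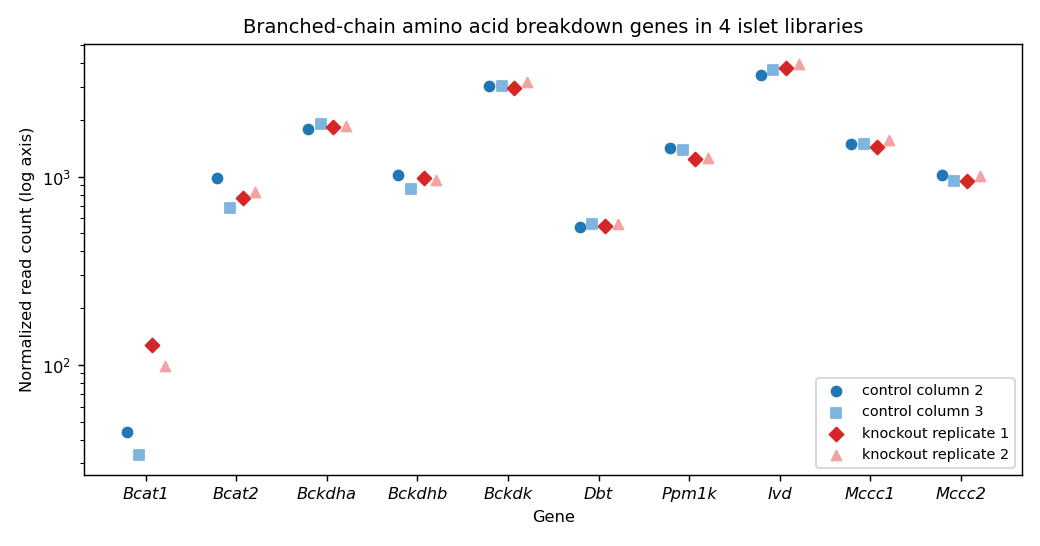
Normalized read counts (log axis) of the 10 genes in the 4 libraries, 1 point per pool of islets. Bcat1 lies far below the other genes, at 33.1 to 43.9 in controls and 98.8 to 128 in knockouts, while the 4 points of most other genes lie close together.

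Bcat2 (GRCm38 chromosome 7, 45570153 to 45589711, plus strand), the mitochondrial aminotransferase, showed no such separation. Its normalized read count was 984 and 678 in control columns 2 and 3 and 773 and 827 in knockout replicates 1 and 2. Both knockout values lay between the 2 control values, which differed 1.45-fold, the widest gap within a genotype among the 10 genes. The log2 fold change was -0.03 ± 0.15 (SE), with a 95% limma interval of -22.3% to 23.3%. Exons of Bcat2 overlap a scarce gene on the opposite strand. Those of Bcat1 share 337 bases with the antisense gene Gm26666, which had a mean normalized count of 0.

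The balance between the aminotransferases was compared per kilobase of exon, since the genes differ in length. Bcat2 exceeded Bcat1 by 53.5-fold in control column 2 and 48.9-fold in control column 3. In knockout replicates 1 and 2 it exceeded Bcat1 by 14.4-fold and 20.0-fold. Even the knockout pools thus held far more Bcat2 than Bcat1 transcript per length. With the longest coding transcript as the length, the mean excess was 80.7-fold in controls and 27.1-fold in knockouts, against 51.2-fold and 17.2-fold over all exons.

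Transcripts of the ketoacid dehydrogenase complex stood at nearly the same level in both genotypes. Bckdha, the alpha subunit of the decarboxylase, had normalized read counts of 1779.9 and 1891 in controls and 1844 and 1849.7 in knockouts. Bckdhb, its beta subunit, stood at 1016 and 854 in controls and 977 and 955 in knockouts. Dbt, the acyltransferase core, stood at 541 and 559 in controls and 545 and 563 in knockouts. For all 3 subunits the ranges of the genotypes overlapped. The log2 fold changes were 0.01 ± 0.06 for Bckdha, 0.05 ± 0.09 for Bckdhb and 0.01 ± 0.08 for Dbt (SE). The widest of their 95% limma intervals was that of Bckdhb, from -9.78% to 19.2%. Summed over these 3 subunits, the normalized count was 3336 and 3304 in controls and 3366.9 and 3367.6 in knockouts. Means were 3320.3 ± 22.4 and 3367 ± 0.455 (SD, n = 2 each), and an SD of 2 values is a poor measure of spread. These sums did not overlap between genotypes. Groups did not overlap for 45.0% of all tested genes, and no such share was computed for sums. Per kilobase, Bckdha exceeded Dbt by 5.79-fold to 5.96-fold in the 4 libraries. Exons of Bckdha overlap B3gnt8 on the opposite strand, which had a mean normalized count of 41.8.

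The regulators of the complex were both well expressed. Bckdk, the kinase that inactivates it, had normalized read counts of 3043 and 3022 in controls and 2937 and 3160.4 in knockouts, so the knockout values lay on either side of the controls (log2 fold change 0.01 ± 0.06, SE). Ppm1k, the mitochondrial phosphatase that reactivates it, stood at 1413 and 1377 in controls and 1243 and 1254 in knockouts. Both knockout values of Ppm1k lay below both control values, with a log2 fold change of -0.16 ± 0.06 (SE) and a 95% limma interval of -18.5% to -1.62%. Ppm1k did not pass limma's adjusted threshold over all genes. The ratio of Bckdk to Ppm1k per kilobase was 3.51 and 3.58 in controls and 3.85 and 4.11 in knockouts. The genotypes did not overlap in this ratio, as they did not in Ppm1k itself. Groups did not overlap for 45.0% of all tested genes, and no such share was computed for ratios.

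In the leucine branch, Ivd, the isovaleryl-CoA dehydrogenase, had normalized read counts of 3482 and 3685 in controls and 3761 and 3982 in knockouts. Both knockout values lay above both control values, but by less than the gap between the pools of either genotype. The log2 fold change was 0.11 ± 0.06 (SE), with a 95% limma interval of -0.954% to 17.8%. Mccc1, the biotin-bearing subunit of methylcrotonyl-CoA carboxylase, stood at 1482 and 1491 in controls and 1427 and 1557 in knockouts. Mccc2, its other subunit, stood at 1023 and 944 in controls and 946 and 1003 in knockouts. The genotypes overlapped for both subunits, with log2 fold changes of 0.00 ± 0.07 and -0.01 ± 0.07 (SE). Exons of Mccc1 overlap antisense genes, the most abundant of which had a mean normalized count of 83.7.

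Among the 9 genes other than Bcat1, limma called 0 at the adjusted threshold, and edgeR and DESeq2 called 0 each. Of all 16589 tested genes, limma called 0.621%, edgeR 128 genes and DESeq2 314, so 0 calls among 9 genes is near these shares. An unadjusted limma p under 0.05 was found for 1 of the 9 (Ppm1k), against 14.1% of all tested genes. Of these 9, 6 log2 fold changes were above 0 and 3 below, with a median of 0.01. The median size of the change without its sign was 0.01, against 0.10 over all tested genes. The median SE was also smaller for the 9, at 0.065 against 0.089, so these medians compare genes measured with unlike precision. The 95% limma intervals of the 9 lay between -0.36 and 0.30 on the log2 scale. The estimate for Bcat1 lay outside all of them. Bcat1 was chosen for its difference in these same libraries, so nothing is read from this. Groups did not overlap for 2 of the 9, Ppm1k and Ivd, while this held for 45.0% of all tested genes.

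**Figure D2:**
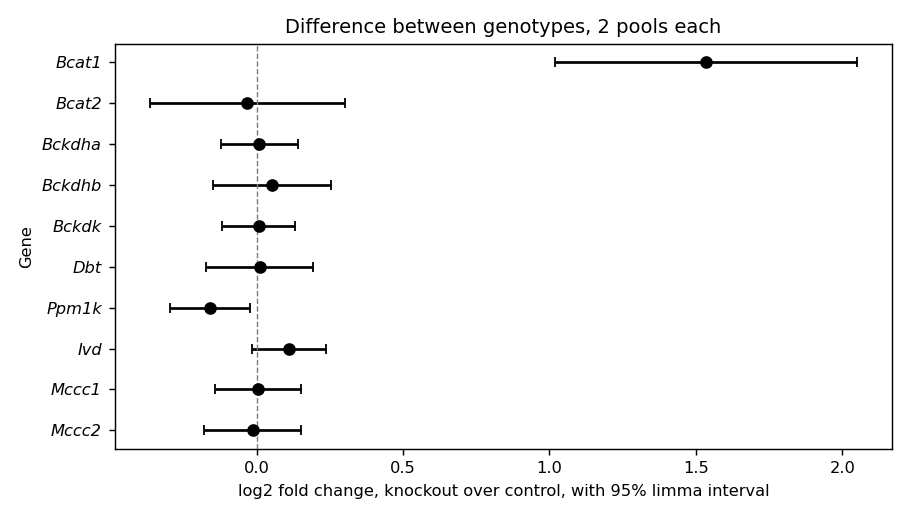
Log2 fold change of each gene, knockout over control, with its 95% limma interval (n = 2 pools per genotype). Bcat1 stands at 1.53, and the other 9 genes lie between -0.16 and 0.11.

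Levels of different genes were ordered as normalized reads per kilobase of exon. Bckdha ranked highest in each of the 4 libraries, at 937 to 996, followed by Bckdk at 795 to 855, Ivd at 633 to 723, Bckdhb at 473 to 563 and Mccc2 at 337 to 365. Ppm1k at 206 to 235 and Bcat2 at 174 to 252 overlapped and changed places between libraries. Dbt at 161 to 168 and Mccc1 at 130.3 to 142 came next, and Bcat1 was last in every library, at 3.55 to 13.7. By mean level per kilobase, 89.1% of tested genes stood below Bckdha and 8.99% below Bcat1. The order depended on the length used: with the longest coding transcript, Ivd led at 950.1 to 1087 and Mccc1 moved up past Mccc2 to 581 to 634, while Bcat1 stayed last at 4.23 to 16.3.

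**Figure D3:**
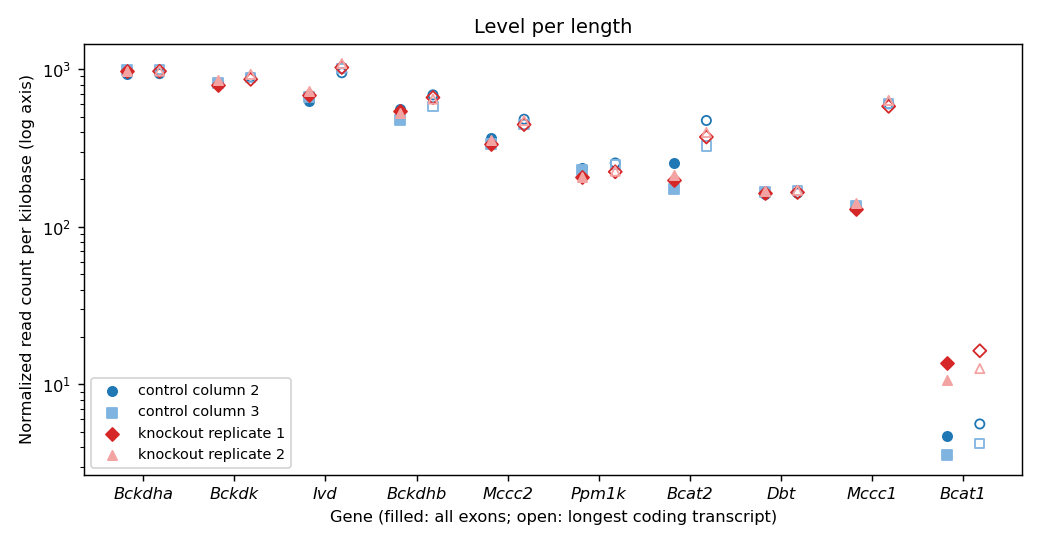
Normalized read count per kilobase (log axis) of the 10 genes in the 4 libraries, with the length of all exons (filled) or of the longest coding transcript (open). Bcat1 is the lowest gene with either length, and Mccc1 and Bcat2 shift the most between them.

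The 5 genes whose pattern over the 4 libraries lay nearest to that of Bcat1 were Dcn, C7, Serpina7, Ifit3b and C4b, in that order. Likeness was the Euclidean distance between deviations of log2(value + 1) from the gene mean, over 12369 candidate genes, and was 0.29 for Dcn and 0.52 for C4b. Dcn, the matrix proteoglycan decorin, had normalized read counts of 175 and 114 in controls and 408 and 296 in knockouts. C7, a terminal complement component, stood at 45.0 and 27.3 in controls and 159 and 113 in knockouts. Serpina7, thyroxine-binding globulin, stood at 1389.6 and 1181 in controls and 2961 and 2754 in knockouts. In each of these genes, as in Bcat1, control column 3 was the lowest library and knockout replicate 1 the highest. Ifit3b, an interferon-induced gene with a close paralog, stood at 72.5 and 43.8 in controls and 153 and 98.8 in knockouts. C4b, a complement component with a close paralog, stood at 72.5 and 39.0 in controls and 214 and 112 in knockouts. With 4 libraries many genes share such an order.

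**Figure D4:**
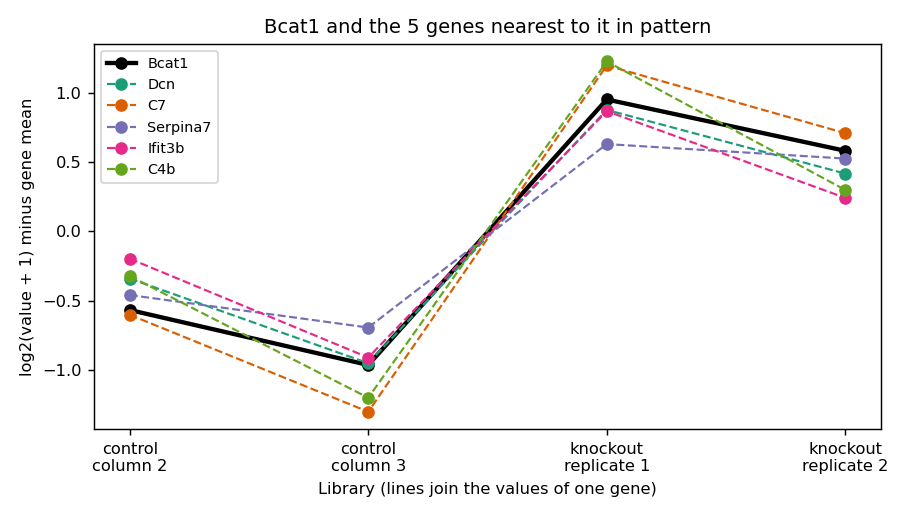
Deviation of log2(value + 1) from each gene's mean for Bcat1 and the 5 genes nearest to it, by library; lines join the values of 1 gene. All 6 genes are lowest in control column 3 and highest in knockout replicate 1.

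Markers of other cell types were read in the same libraries. Of 9 stellate cell and fibroblast markers, 8 had a log2 fold change above 0, with a median of 0.62, and Dcn rose. Their summed level was 10613 to 12389 in controls and 12800.0 to 13386 in knockouts, most of it from Rgs5, at 8855 to 10077 in controls and 9873 to 10117 in knockouts. Pdgfra, a defining marker of these cells, stood at 12.3 and 8.77 in controls and 36.4 and 26.8 in knockouts. All 5 Schwann cell markers and all 5 alpha cell markers also lay above 0, with medians of 0.58 and 0.51, and the 8 tested acinar markers lay below 0, with a median of -0.70. Their summed levels in controls and knockouts were 611 to 639.6 and 705 to 782 for Schwann cells, 1118048 to 1295589 and 1313257 to 1577402 for alpha cells, and 12658 to 14379 and 6211 to 10743 for the 10 acinar markers. Rbp4 in the delta cell list rose. The medians were 0.12 for delta cell, 0.33 for PP cell, 0.16 for duct cell and 0.01 for macrophage and lymphocyte markers. Limma, edgeR and DESeq2 each called 0 of the 8 beta, 8 acinar, 5 Schwann, 2 PP, 6 duct, 7 endothelial and 7 macrophage and lymphocyte markers tested. In the same order of tools, they called 1, 1 and 3 of 5 alpha markers and 1, 1 and 2 of 9 stellate cell and fibroblast markers. Each called 1 of 4 delta markers. Of all 16589 tested genes they called 103, 128 and 314. An unadjusted limma p under 0.05 was found for 14.1% of all tested genes. Among markers it was found for 8 of 8 acinar, 6 of 9 stellate cell and fibroblast, 3 of 5 alpha and 2 of 2 PP genes. The counts were 1 of 6 for duct, 1 of 4 for delta and 1 of 8 for beta cell markers. They were 0 for the Schwann, endothelial and macrophage and lymphocyte markers. Endothelial markers had a median of 0.03, with sums of 31441 to 35389 and 33253 to 35149. No marker was at 0 in all libraries; the acinar regulators Ptf1a and Rbpjl were near 0. The part of these cells in the difference of Bcat1 was not tested.

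The rest of the pathway was read from 7 lists that together held 78 tested genes. Limma called 0 of the 78, 11 had an unadjusted p under 0.05, edgeR called 0 and DESeq2 called 2 (Tat and Myc, named after their values were seen). The 11 make up 14.1%, the same share as over all tested genes (14.1%). Of all 16589 tested genes, limma called 0.621%, edgeR 128 genes and DESeq2 314. Counts of 0 called in lists of this size, here and list by list below, are near these shares. The median log2 fold change of the 78 was 0.01, against 0.00 over all tested genes.

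**Figure D5:**
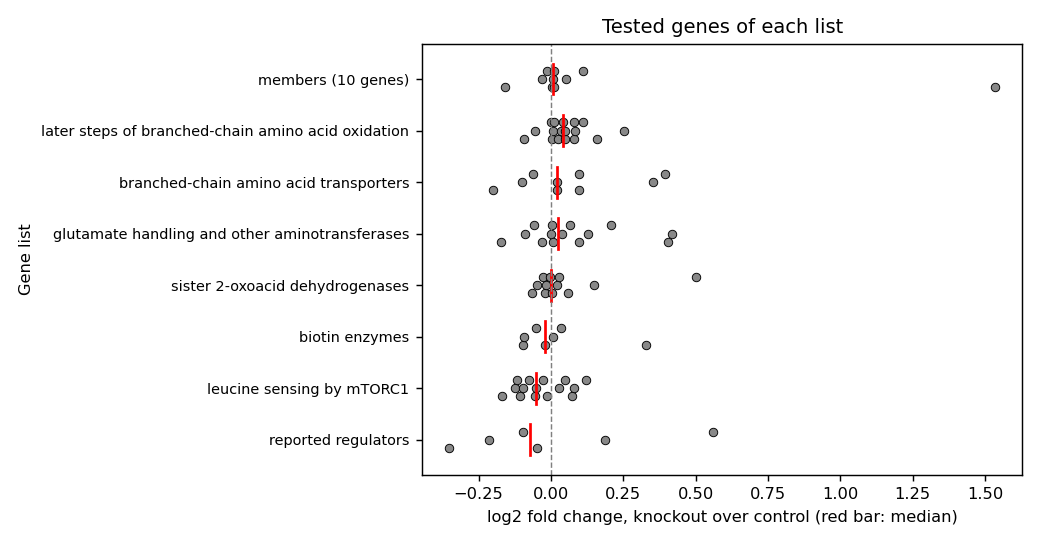
Log2 fold change, knockout over control, of the tested genes of each list, 1 point per gene, with the median as a red bar. Bcat1 at 1.53 lies apart from all other points, which range from -0.35 (Ppargc1a) to 0.56 (Myc).

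Later steps of branched-chain amino acid oxidation, which carry the acyl-CoA products to acetyl-CoA, acetoacetate and succinyl-CoA, had 0 of 17 genes called. Differences above 0 numbered 15 of 17, against 50.1% of all tested genes. The median log2 fold change of the list was 0.04. Acadsb, which acts on the isoleucine product, had normalized read counts of 5852 and 5699 in controls and 6025 and 5733 in knockouts. Dld, the dihydrolipoamide dehydrogenase shared by the 2-oxoacid dehydrogenase complexes, was placed in this list although it acts in the ketoacid dehydrogenase step itself. It stood at 4722 and 4741 in controls and 4800.1 and 4668 in knockouts. Both genes overlapped between genotypes, and the widest difference in the list was that of Hsd17b10, at 0.25 ± 0.08 (SE).

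Branched-chain amino acid transporters had 0 of 9 tested genes called and a median of 0.02; Slc43a1 was below the filter. Slc7a5, the light chain of the leucine exchanger LAT1, stood at 8605 and 10357 in controls and 9532 and 9621 in knockouts. Slc7a8, its paralog LAT2, stood at 8957 and 8977 in controls and 9285 and 9918 in knockouts. Slc6a19, a transporter of neutral amino acids, had the widest difference, at 407 and 392 in controls and 477 and 578 in knockouts. Its log2 fold change was 0.39 ± 0.11 (SE), with a limma adjusted p of 0.138. The mitochondrial branched-chain amino acid carrier Slc25a44 stood at 4986 and 5126 in controls and 4867 and 4818 in knockouts.

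Genes for glutamate handling and other aminotransferases had 0 of 14 called, with a median of 0.02. Glul, glutamine synthetase, stood at 25742 and 29259.8 in controls and 26155 and 26611 in knockouts. Abat, the GABA transaminase, stood at 7924 and 7543 in controls and 7227 and 7303 in knockouts. Tat, the tyrosine aminotransferase, stood at 1454 and 1278 in controls and 1734 and 1912 in knockouts, with a log2 fold change of 0.42 ± 0.08 (SE) and a limma adjusted p of 0.0594. Alternatives gave Tat an adjusted p between 0.00519 and 0.397.

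Sister 2-oxoacid dehydrogenases and their kinases and phosphatases had 0 of 12 called, with a median of 0.00. Ogdh, the 2-oxoglutarate dehydrogenase, stood at 12394 and 12044 in controls and 12239 and 11391 in knockouts, and Pdha1, a subunit of pyruvate dehydrogenase, at 5454 and 5392 against 5677 and 5379. Exons of Pdha1 overlap the abundant gene Map3k15 on the opposite strand. Pdk4, a pyruvate dehydrogenase kinase related to Bckdk, had the widest difference, at 1677 and 1362 in controls and 2447 and 1874 in knockouts (log2 fold change 0.50 ± 0.13, SE; limma adjusted p = 0.116). Biotin enzymes had 0 of 7 called and a median of -0.02, with the pyruvate carboxylase Pcx at -0.02 ± 0.05 and the propionyl-CoA carboxylase subunit Pccb at 0.01 ± 0.05 (SE). No biotin enzyme had an unadjusted p under 0.05.

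Of the genes for leucine sensing by mTORC1, 0 of 15 were called, with a median of -0.05. Of the 15, 10 lay below 0, as did 8279 of all 16589 tested genes. Sesn3, a member of the sestrin family, stood at 11962 and 12236 in controls and 11405 and 10907 in knockouts. Rragc, a Rag GTPase, stood at 5445 and 5776 in controls and 5283 and 5529 in knockouts. Among 6 reported regulators of the pathway, 0 were called by limma, and their median was -0.07. An unadjusted limma p under 0.05 was found for 4 of the 6, against 14.1% of all tested genes. Atf4, a stress-induced activator of amino acid genes, stood at 25325 and 25997 in controls and 21085 and 23265 in knockouts, with a log2 fold change of -0.21 ± 0.06 (SE; limma adjusted p = 0.134). Mlxipl, the glucose-responsive factor ChREBP, stood at 8186 and 8004 in controls and 7111 and 8048 in knockouts. Myc, a reported activator of Bcat1, stood at 713 and 535 in controls and 872 and 953 in knockouts, with a log2 fold change of 0.56 ± 0.13 (SE; limma adjusted p = 0.0857). Alternatives gave Myc an adjusted p between 0.00936 and 0.432.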

How the data were processed

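Poly(A)-enriched RNA of 4 islet pools was sequenced on an Illumina platform, per the labels' protocols. The submitters' processing notes name the build GRCm38 and the tools DESeq2 1.22.2, featureCounts 1.6.0, STAR 2.5.1b and CASAVA 1.4, with no role for any; the annotation and strand setting are not given in the sources used here. The authors deposited a signal for each gene in each library; per the file headers and name, these are read counts scaled by library size. They also deposited a log2 fold change, a test score, p-values and adjusted p-values per gene, of which only the values of the members were used. Dividing each column by its value of 1 read brought 100% of values to within 0.01 of a whole read. Columns left without a sample numbered 0. The 2 libraries of each genotype differed beyond counting error (chi-square over degrees of freedom of 10.1 and 9.85). The labels do not say that the pools were prepared separately, so p-values rest on the spread between these pools, which may in part be technical. Each limma SE, interval and p-value also drew on the spread of other genes at similar levels. The prior had 6.851 degrees of freedom, against 2 residual degrees of freedom from the gene itself.

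Genes reaching 10 or more in 2 or more libraries were kept. The two-sided test was that of limma 3.58.1 (R 4.3.3) with a mean-variance trend, on values to which a pseudocount of 1 was added before taking log2. This pseudocount shrinks the differences of low genes. P-values were adjusted by the Benjamini-Hochberg method over all genes, with a threshold of 0.05. With 2 pools against 2, the smallest p of an exact permutation test is 0.333. The members and lists were chosen with earlier results of these data known. Named list genes were the 2 most abundant where none was called. Hsd17b10, Slc6a19, Slc25a44, Tat, Pdk4, Ppargc1a, Myc and the marker Pdgfra were named after their values were seen. Alternatives were pseudocounts of 0.5 and 5, no filter, a filter at 50, 2 scalings, limma without the trend or robust, each library left out, and edgeR 4.0.16 and DESeq2 1.42.0 on the recovered reads. Lengths and coordinates are from GENCODE M21 (GRCm38), and promoters from RefSeq. Protein sequences were not used here, and 1 gene of the marker lists is not reported singly here. The steps were tested on simulated data.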

Additional observations from a re-analysis of the deposited data

How the results depend on the processing

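The log2 fold change of Bcat1 kept its direction in all 14 alternatives. It was 1.53 with no filter on low values (limma adjusted p = 0.217) and without the mean-variance trend (0.324), where the call ended; without 1 library it was 1.34 to 1.73. None of the other 9 members was called in any alternative. Bcat2, Bckdha, Bckdhb, Bckdk, Dbt, Mccc1 and Mccc2 changed sign in 1 to 3 alternatives each, Ppm1k and Ivd in 0.

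Genes higher and lower numbered 1 and 1 with no filter, 19 and 32 with a filter at 50, 0 and 0 without the trend (1841 at an unadjusted p under 0.05), 85 and 124 with robust empirical Bayes, 111 and 203 with DESeq2, and 33 lower with a common upper quartile. Leaving out 1 library gave 49 to 178 higher, the most without control column 2, and 47 to 219 lower. In the lists, robust empirical Bayes called 1 gene (Tat) and DESeq2 called 1 aminotransferase (Tat) and 1 regulator (Myc). Leaving out 1 library gave 0 to 1 calls among aminotransferases (Tat), sister dehydrogenases (Pdk4) and regulators (Myc higher, Ppargc1a lower). Bcat2 over Bcat1 per kilobase was 80.7 in controls and 27.1 in knockouts with the longest coding transcript, a length chosen after seeing the data. The causes were not tested. No paired analysis was possible because the control columns carry the numbers 2 and 3 and the knockout columns 1 and 2, so the groups share only 1 number. With 34 to 123 reads of Bcat1 per library, counting error adds to the spread between pools.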
